A study of Homo sapiens with 5 samples.

Results

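Among the RNA polymerase II peaks of U2932 cells, 7893 overlapped a peak of PRDM11 antibody 2 and none of PRDM11 antibody 1. They were chosen from the 50161 polymerase II peaks called against IgG by 2 conditions, a width under 2000 bp, which 49885 peaks met, and an overlap of at least 1 bp with the antibody 2 list but not with the antibody 1 list. These 7893 antibody 2 only peaks made up 15.8% of the 49885. A further 4763 held peaks of both antibodies, 2304 of antibody 1 only, and 34925 of neither. The peak calls of the 3 ChIP libraries against IgG thus fixed the members, and their overlap with antibody 2 is given as a description without a test.

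U2932 is an established human B cell lymphoma line, here grown without treatment. Chromatin was cross-linked, sonicated and precipitated with antibody 2 or antibody 1, both non-commercial rabbit polyclonal antibodies raised against PRDM11, or against RNA polymerase II. Rabbit IgG and unprecipitated input were the control libraries. There was 1 library of each of the 5 kinds, so no value has an error between replicates, and the 95% exact binomial intervals cover counting error over peaks only.

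RNA polymerase II is the enzyme that transcribes protein-coding genes and many noncoding RNAs. It gathers just downstream of gene starts, where it can pause before it moves on, and it is also found at active enhancers and along highly transcribed genes. PRDM11 belongs to the PR domain family, proteins named for a domain related to the SET domain of histone methyltransferases, some of which repress transcription. A second antibody to the same protein, recognising other parts of it, is a common check on which sites belong to the protein. A site called with a single antibody lacks that check.

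The lists themselves differed widely in size and in the width of their peaks. Antibody 2 had 465837 peaks over 64.8 Mb, antibody 1 had 13499 over 3.56 Mb, and polymerase II had 50161 over 17.9 Mb. Of the antibody 2 peaks, 78.4% had the smallest width in the list, 123 bp. The lists give positions on the human build hg19 without read counts, so the sequencing depth is unknown. Peaks were not assigned to genes, since no gene annotation of that build was used here.

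The antibody 2 only peaks were of intermediate width. Their median was 307 bp, with quartiles of 194 bp and 536 bp and a range of 129 to 1989 bp. The median was 501 bp where both antibodies overlapped, 382 bp with antibody 1 only, and 215 bp with neither. At the width limit, the widest members measured 1989, 1989 and 1979 bp, and the narrowest peaks of the same overlap left out by it measured 2002, 2006 and 2007 bp. The limit left out 125 such peaks.

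The 10 widest members lay on 8 chromosomes and measured 1949 to 1989 bp. The widest pair lay at chr11:61112622-61114610 and chr21:43244888-43246876, and each held 1 antibody 2 peak of 123 bp, which covered 6.18% of it. The next were chr1:28836033-28838011 (1979 bp) and chr19:3535056-3537030 (1975 bp), again with 1 antibody 2 peak of 123 bp each. Wider antibody 2 peaks, of 214 bp, 179 bp and 163 bp, lay in chr10:89621264-89623228, at the left edge of chr11:61600854-61602818, and in chr12:14922320-14924268. The remaining 3 were chr8:23281281-23283234, chr1:51441789-51443737 and chr15:31506439-31508387, the last with 2 antibody 2 peaks. In 7 of the 10, no antibody 2 peak was wider than 123 bp, which was also so in 64.1% of all members. The nearest antibody 1 peak lay 3779 bp away from the chromosome 12 member and 102940 bp away from the chromosome 8 member, the extremes of the 10. Of the 10, 6 kept their class in the lists called against input, beside 71.7% of all members. The 5 widest of that kind were both chromosome 11 members, chr1:28836033-28838011 and those on chromosomes 19 and 10.

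The 10 members with the widest antibody 2 peaks were picked separately. Their polymerase II peaks measured 129 to 373 bp, against a median of 307 bp over all members, and overlapped antibody 2 peaks of 700 to 1510 bp. That they are narrower than the 10 widest members follows from how those were picked. In each of the 10, that antibody 2 peak also reached an antibody 1 peak outside the polymerase II peak, 85 to 480 bp away from it. Most antibody 2 peaks this wide do so, since of the 691 of 500 bp or wider 64 touched no antibody 1 peak. The polymerase II peak at chr1:150337807-150338179 (373 bp) touched the end of an antibody 2 peak of 1510 bp that held 2 antibody 1 peaks, the nearer one 120 bp from it. At chr12:6938860-6939149 (290 bp) the antibody 2 peak measured 1415 bp and the gap to antibody 1 was 85 bp. At chr3:184428615-184428767 (153 bp) these values were 1241 bp and 155 bp. Antibody 2 peaks of 933 bp and 722 bp covered the polymerase II peaks at chr19:49617597-49617793 and chr6:111135437-111135565 in full. Against input 5 of the 10 had an antibody 1 peak and 4 kept their class, beside 12.7% and 71.7% of all members. Members of this kind were few, since in 85 of the 7893 (1.08%) the antibody 2 peak reached an antibody 1 peak. Of those 85, 34.1% had an antibody 1 peak against input and 57.6% (46.4% to 68.3%) kept their class.

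Most members held a single antibody 2 peak. That was so in 7240 (91.7%), while 614 held 2, 37 held 3 and 2 held 4. The pair with 4 were chr16:87861680-87863559 (1880 bp, 36.1% covered) and chr17:79519186-79520527 (1342 bp, 29.4% covered). Of the 37 members with 3, one on chromosome 1, chr1:45965469-45965765, measured 297 bp and lay 115 bp from an antibody 1 peak. The median share of a member covered by antibody 2 was 31.8%, and in 26.0% of members it was at least 50%. Members held 8435 different antibody 2 peaks, 152 of which spanned 2 or more members, so members are not independent of each other.

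How many overlaps remain out of place was gauged by moving the antibody 2 list by 50 kb in either direction. Such a move largely keeps the regional density of peaks, so it does not isolate the length of the list. Of the 42818 polymerase II peaks narrower than 2000 bp without an antibody 1 peak, 7893, or 18.4% (18.1% to 18.8%), overlapped antibody 2 in place. After the move, 4318 did on average, and the share over both directions was 10.1%. The count in place was 1.83 times as high, a difference of 3575 peaks. The count after the move equalled 54.7% of the members, and which members correspond to such displaced overlaps is not known. Over all 49885 polymerase II peaks, antibody 1 aside, the share with antibody 2 was 25.4% in place and 10.6% after the move.

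The overlap decayed over short distances. A move of 150 bp left 17.6% of the polymerase II peaks without antibody 1 overlapping antibody 2, and moves of 300 bp and 500 bp left 16.3% and 15.4%. The share was 13.8% at 1000 bp, 12.0% at 2000 bp and 11.1% at 5000 bp. Beyond that it changed slowly, to 10.6% at 20000 bp and 9.36% at 200000 bp. Moves in the opposite directions gave nearly the same values, for example 13.9% and 13.7% at 1000 bp.

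**Figure D1:**
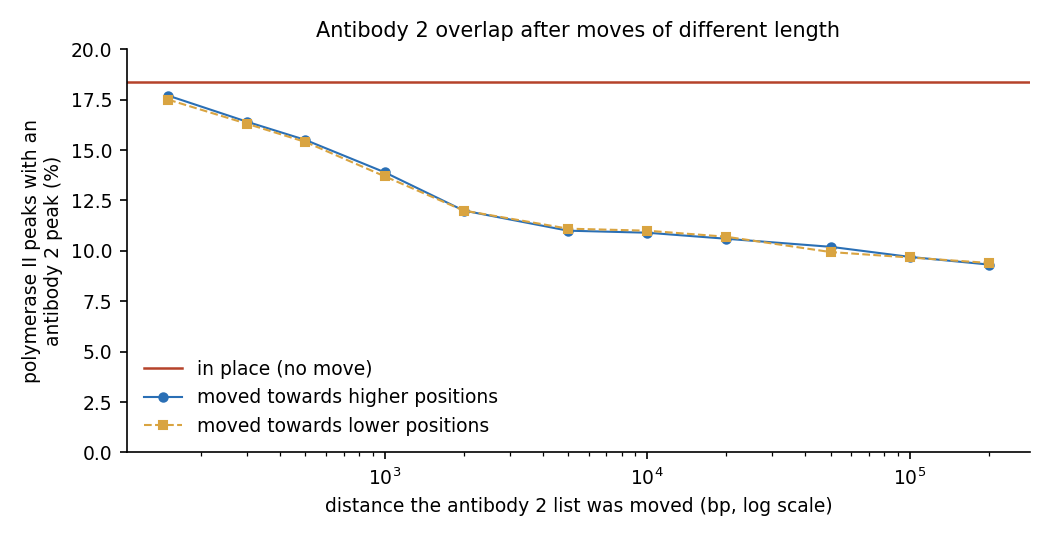
Share of the 42818 polymerase II peaks without antibody 1 that overlap an antibody 2 peak (y axis, %) after the antibody 2 list was moved by the distance on the x axis (bp, log scale) in each direction, with the share in place as a horizontal line. The share is 18.4% in place, and as the mean of both directions 12.0% at 2000 bp and 10.1% at 50000 bp. It falls more slowly beyond 2000 bp but does not level off, with 9.36% at 200000 bp.

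Wider polymerase II peaks held antibody 2 more often, in place and after the move alike. Of the 1091 peaks of 1000 to under 2000 bp without antibody 1, 50.9% (47.9% to 53.9%) overlapped antibody 2 in place and 28.7% after the move. Of the 4897 peaks of 500 to under 1000 bp, 34.2% (32.9% to 35.6%) did in place and 17.3% after the move. At the smallest width of 129 bp the shares were 10.5% (9.47% to 11.6%) and 6.42%. The share in place was thus 1.63 to 1.98 times that after the move over the 6 width classes, a far narrower range than that of the shares themselves.

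**Figure D2:**
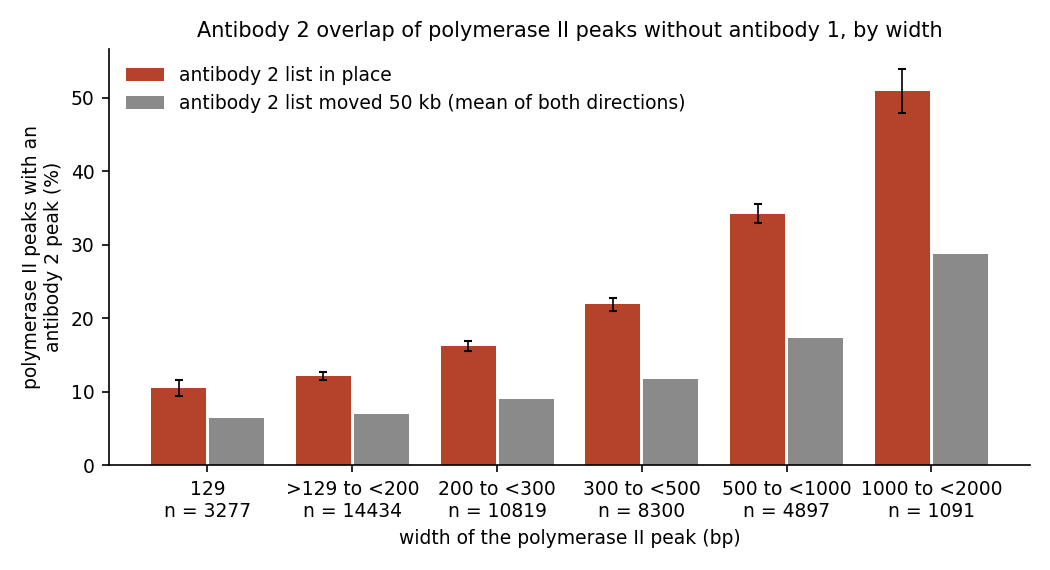
Share of polymerase II peaks without antibody 1 that overlap an antibody 2 peak (y axis, %) by width of the polymerase II peak (x axis, bp, with the number of peaks), with the antibody 2 list in place (left bars, exact 95% intervals) and moved by 50 kb (right bars, mean of both directions). Both bars rise with width, from 10.5% and 6.42% at 129 bp to 50.9% and 28.7% at 1000 to under 2000 bp.

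The antibody 2 peaks in the members were somewhat wider than those that overlapped after the move. In 64.1% of members every antibody 2 peak was 123 bp wide, against 71.9% of the polymerase II peaks overlapped after the move. An antibody 2 peak of 200 bp or wider was present in 17.6% of members and in 13.6% of the peaks overlapped after the move. Members with 2 or more antibody 2 peaks numbered 653 (8.27%), against 228 (5.28%) after the move. By class, 123 bp antibody 2 peaks overlapped 5338 polymerase II peaks without antibody 1 in place and 3186 after the move, a ratio of 1.68. The ratio was 2.56 for antibody 2 peaks wider than 123 and under 150 bp and 2.14 for those of 150 to under 200 bp. For antibody 2 peaks of 200 to under 300 bp the counts were 1099 and 468 (2.35 times), and for those of 300 to under 500 bp 270 and 87.5 (3.09 times). The rule leaves out overlaps with antibody 1 in place, while antibody 2 peaks that touch antibody 1 still count after the move. Without those antibody 2 peaks the ratio was 1.70 at 123 bp, 2.57 at 200 to under 300 bp and 5.76 at 300 to under 500 bp.

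The widest antibody 2 peaks, of 500 bp or more, overlapped 25 polymerase II peaks without antibody 1 in place and 35.0 after the move. Most of them touch an antibody 1 peak, and leaving such peaks out reduced this class from 691 to 64 antibody 2 peaks, with 9 polymerase II peaks overlapped in place and 1.00 after the move. Among polymerase II peaks with both antibodies, which the rule left out, the widest antibody 2 peak had a median width of 221 bp, against 123 bp in the members.

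The lists called against input show how far the class depends on the control. They come from the same ChIP libraries, so they are not a replicate. Of the 7893 members, 5662, or 71.7% (70.7% to 72.7%), were in the same class there. That means a polymerase II peak, an antibody 2 peak and no antibody 1 peak in those lists. This repeats the rule on the same libraries, so a share far above that of the other classes follows from it. Over all 49885 polymerase II peaks the share was 13.2%, and 5662 of those 6609 peaks were the members. It was 2.19% of peaks with neither antibody. The polymerase II peak was found again for 92.1% of members, against 89.3% of all polymerase II peaks, which were narrower. At like width members were not found again more often throughout. The shares were 58.7% and 61.0% at 129 bp, 80.5% and 80.8% at over 129 to under 200 bp, and 98.7% and 98.1% at 300 to under 500 bp. The antibody 2 peak was found again for 89.0% of members and 95.8% of peaks with both antibodies. Of all polymerase II peaks, 26.6% had an antibody 2 peak against input and 25.4% had one against IgG. Among peaks with neither antibody against IgG, 3.99% had an antibody 2 peak against input. Counted by antibody 2 peak, 88.4% of the 8435 in members were found again, against 93.2% of those outside polymerase II peaks. An antibody 1 peak, absent against IgG by the rule, appeared against input in 999 members or 12.7% (11.9% to 13.4%), against 19.6% of all polymerase II peaks, a background that includes those with antibody 1 against IgG. Among peaks with neither antibody this share was 6.49% (6.23% to 6.75%).

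**Figure D3:**
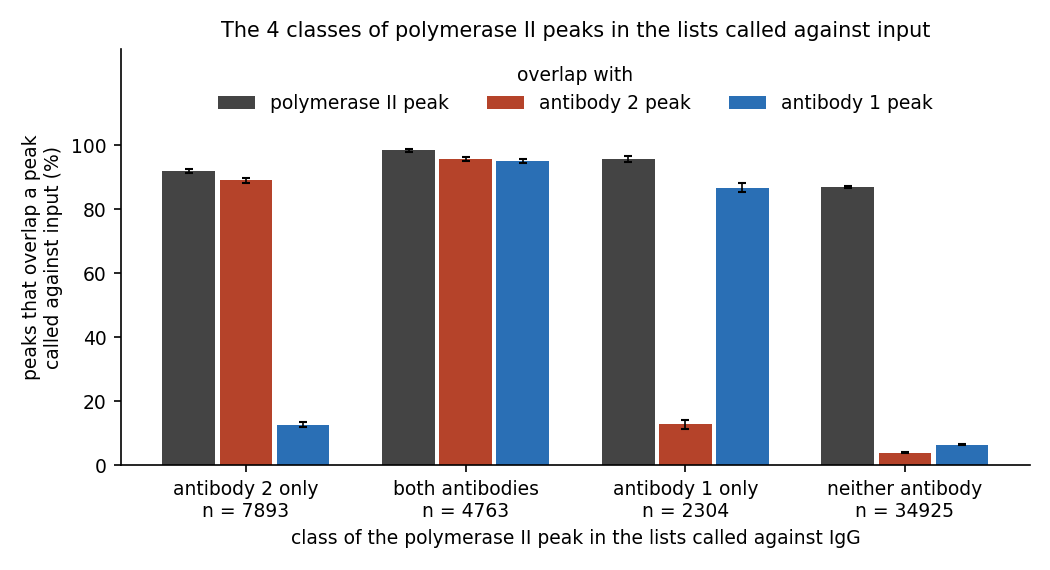
Share of polymerase II peaks in each class (x axis, with the number of peaks) that overlap a polymerase II, antibody 2 or antibody 1 peak called against input (y axis, %), with exact 95% intervals. In the antibody 2 only class the bars stand at 92.1%, 89.0% and 12.7%, and in the class with neither antibody at 87.1%, 3.99% and 6.49%.

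The appearance of antibody 1 against input was more frequent in members than in peaks with neither antibody in each width class above 129 bp. Among peaks of 300 to under 500 bp it was 13.7% (12.2% to 15.4%) in members and 9.20% (8.51% to 9.93%) in peaks with neither. Among peaks of 1000 to under 2000 bp it was 23.8% (20.3% to 27.6%) and 15.3% (12.4% to 18.6%). Among peaks of over 129 to under 200 bp it was 6.05% (4.98% to 7.27%) and 4.60% (4.25% to 4.98%). At 129 bp the intervals overlapped, with 2.03% (0.822% to 4.15%) of members and 1.77% (1.33% to 2.32%) of the others. Part of these peaks lay in the blocks of closely spaced antibody 1 peaks that the input lists contain. Inside the blocks, 37.9% (32.9% to 43.2%) of 356 members and 41.4% (39.4% to 43.5%) of 2184 peaks with neither had an antibody 1 peak against input. Outside them the shares were 11.5% (10.8% to 12.2%) of 7537 members and 4.16% (3.94% to 4.38%) of 32741 peaks with neither. Blocks were picked for many antibody 1 peaks against input, so the shares inside are high by definition. The difference inside therefore cannot be set against that outside, and neither was matched for width.

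Wider antibody 2 peaks were found again more often. Where every antibody 2 peak in a member was 123 bp wide, antibody 2 was found again against input in 84.5% of 5063 members, against 98.3% of the 1441 members whose widest antibody 2 peak was wider than 123 bp and under 200 bp and 96.0% of the 1389 with one of 200 bp or wider. The class as a whole was kept by 69.8% (68.5% to 71.0%), 77.0% (74.7% to 79.1%) and 73.4% (71.0% to 75.7%) of these members. In the last group, 18.2% had an antibody 1 peak against input, against 10.6% of members with 123 bp antibody 2 peaks alone.

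Antibody 1 peaks beside the members, outside the polymerase II peak, were not used by the rule beyond the overlap itself. Within 1000 bp of the member, an antibody 1 peak was present for 1167 members, or 14.8% (14.0% to 15.6%), against 8.68% (8.39% to 8.98%) of peaks with neither antibody. Over all 49885 polymerase II peaks the share was 22.6%, which includes those that overlap antibody 1. The excess lay close by: a gap of 250 bp or less was found for 6.42% (5.89% to 6.99%) of members and 2.85% (2.68% to 3.03%) of peaks with neither, and a gap of over 250 to 500 bp for 4.27% (3.83% to 4.74%) and 2.53% (2.37% to 2.70%). A gap of over 1000 to 2000 bp was found for 3.71% (3.31% to 4.15%) of members and 3.65% (3.46% to 3.85%) of peaks with neither, with overlapping intervals. At the far end, 27.4% of members and 29.9% of peaks with neither lay over 50000 bp from antibody 1, against 25.2% of all polymerase II peaks.

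Seen the other way, polymerase II peaks close to antibody 1 without overlapping it were members more often. Within 1000 bp of an antibody 1 peak, 1167 of 4198 peaks, or 27.8% (26.4% to 29.2%), overlapped antibody 2 in place and 9.16% after the move. The share in place was 18.4% (17.3% to 19.5%) at over 1000 to 5000 bp and 17.2% (16.5% to 17.8%) beyond 50000 bp, and after the move it was 11.9% and 8.54%. Hence the ratio of in place to moved was 3.04 close to antibody 1 and 1.54 to 2.01 in the other distance classes. The same was seen within 1 width class: among polymerase II peaks of 300 to under 500 bp the share was 33.0% (29.95% to 36.2%) within 1000 bp and 19.9% to 21.3% farther away. Leaving out the 85 members whose antibody 2 peak reached the antibody 1 peak gave 26.3% (25.0% to 27.7%).

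**Figure D4:**
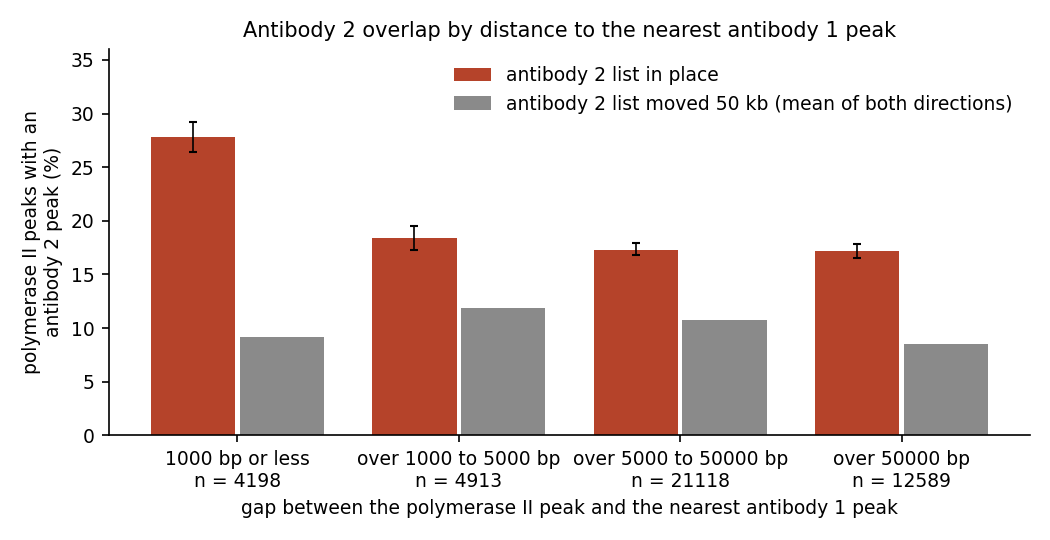
Share of polymerase II peaks without antibody 1 that overlap an antibody 2 peak (y axis, %) by the gap to the nearest antibody 1 peak (x axis, bp, with the number of peaks), with the antibody 2 list in place (left bars, exact 95% intervals) and moved by 50 kb (right bars, mean of both directions). In place, the class within 1000 bp stands at 27.8% and the other classes between 17.2% and 18.4%.

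Most members had another polymerase II peak close by, as most polymerase II peaks did. It lay within 1000 bp of 69.4% (68.4% to 70.4%) of members, 66.8% (66.3% to 67.3%) of peaks with neither antibody and 66.5% of all 49885. Among peaks of 500 to under 1000 bp members had such a neighbour less often than peaks with neither, at 69.6% (67.4% to 71.8%) and 76.3% (74.8% to 77.7%). At 1000 to under 2000 bp the shares were 82.9% (79.5% to 85.9%) and 88.4% (85.4% to 91.0%), with overlapping intervals. At 129 bp the order was reversed, with 55.8% (50.4% to 61.1%) of members and 50.02% (48.2% to 51.8%) of the others, again with overlapping intervals. Joined over gaps of up to 1000 bp, the polymerase II list formed 27108 runs, and 6443 of them held a member. Of those, 5424 held 1 member, 763 held 2 and 256 held 3 or more, and 2414 members stood alone in their run. In 17.1% (16.2% to 17.9%) of members the run also contained a polymerase II peak with antibody 1, against 12.2% (11.9% to 12.6%) of peaks with neither. Among peaks of 1000 to under 2000 bp this difference was not seen, with 100 of 555 members (interval 14.9% to 21.5%) and 107 of 536 of the others (16.7% to 23.6%).

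Inside the polymerase II peak, antibody 2 midpoints of the members of 500 bp or wider were spread nearly evenly. Midpoints that fell outside the polymerase II peak were left out. In members of 500 to under 2000 bp, 52.2% (50.1% to 54.2%) of 2346 antibody 2 midpoints lay in the central 50% of the peak. In polymerase II peaks with both antibodies the share was 54.8% (53.0% to 56.5%) of 3206 midpoints. After the move of 50 kb it was 51.8% of 2227 midpoints in peaks without antibody 1. That number pools both directions, so it cannot be set against the 2346 in place. The interval of the members held the value after the move and overlapped that of the class with both antibodies. In the class of 300 to under 500 bp the shares were 53.1% (50.6% to 55.6%) in members and 57.8% (54.8% to 60.8%) in peaks with both antibodies. After the move the share was 48.9% (46.3% to 51.4%), a value outside the interval of the members, though the intervals overlapped.

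Members were found on chromosomes 1 to 22 and X, at similar shares of the polymerase II peaks without antibody 1. In 21 of the 23 chromosomes this share lay between 15.9% (chromosome 13) and 20.4% (chromosome 15). Chromosome 19, known for its many genes, had the highest share, with 692 of 3201 peaks or 21.6% (20.2% to 23.1%) in place and 13.4% after the move. Chromosome X had 17.8% (14.9% to 20.9%) in place and 5.52% after the move, the highest ratio at 3.22. In each of the 23 chromosomes the share in place exceeded that after the move.

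**Figure D5:**
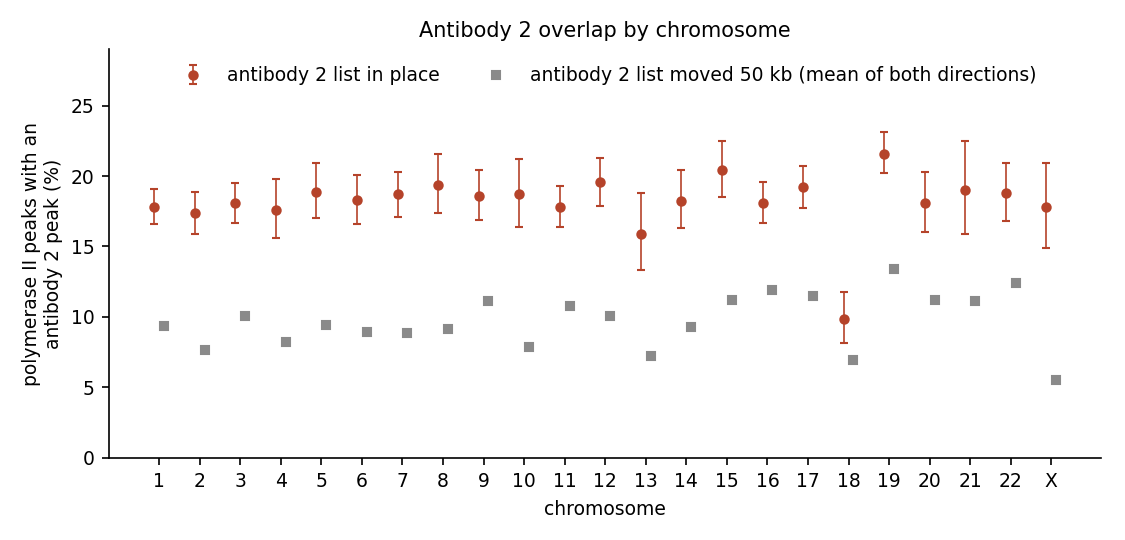
Share of polymerase II peaks without antibody 1 that overlap an antibody 2 peak (y axis, %) on each chromosome (x axis), with the antibody 2 list in place (circles, exact 95% intervals) and moved by 50 kb (squares, mean of both directions). Chromosome 18 stands lowest in place at 9.85% and chromosome 19 highest at 21.6%, and every circle lies above its square.

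Chromosome 18 had the lowest share, with 105 of 1066 peaks or 9.85% (8.13% to 11.8%) in place and 6.94% after the move. Its longest block of closely spaced antibody 1 peaks against input, from 51000001 to 62000000, was looked at after this value was seen. The block held 506 of the polymerase II peaks without antibody 1, of which 21, or 4.15% (2.59% to 6.27%), overlapped antibody 2 in place and 4.35% after the move. In the rest of chromosome 18 the shares were 15.0% (12.1% to 18.2%) and 9.29%. The 21 members of that block were thus no more numerous than displaced overlaps.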

How the data were processed

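ChIP-seq peak lists of 3 ChIP libraries were used, 1 library per antibody, each called against IgG and against input (6 lists). Bowtie 0.12.7, MACS2 2.0.9, SAMtools and build hg19 are listed in the submitters' processing notes, without order or settings. Control and q threshold (0.1) come from the names of the deposited lists. Whether duplicates were removed is not stated there. The deposited lists hold chromosome, start and end alone, and starts are printed counted from 1. Depth is unknown, so a low threshold or an uneven control can change peak numbers and overlaps unseen.

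Overlap meant at least 1 bp. The antibody 2 list was moved by 50 kb both ways and the 2 shares averaged. Intervals are exact (Clopper-Pearson, 95%) and treat peaks as independent, and no p-values were computed. Blocks joined 1-Mb bins in which the antibody 1 list against input had 50 or more peaks and 5 or more times the IgG list's count plus 1. The regions named were the 10 widest members, the 10 with the widest antibody 2 peak, the 5 with the most antibody 2 peaks and the 5 widest of the same class against input, with ties taken by chromosome and start. The members, blocks and classes were chosen with earlier results of these data known. Sequences were not used, since the reference tables are on another build. Python 3.11.15, NumPy 2.4.6, pandas 2.3.3, SciPy 1.17.1 and matplotlib 3.10.9 were used. The code was tested on simulated data, and bedtools 2.31.1 gave the same 7893 members.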

Additional observations from a re-analysis of the deposited data

How the results depend on the processing

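The ratio of the antibody 2 share in place to that after the move was 1.83 and stayed between 1.62 and 2.36 under the alternatives run. The values that follow fell outside the exact interval of the main share, or differed from the main count by a factor above 1.5. With the 3 lists called against input, the shares in place and after the move were 17.7% and 10.9%. With polymerase II against IgG and both PRDM11 antibodies against input, the share in place was 17.5%. With antibody 2 required in both lists and antibody 1 in neither, the shares were 15.3% and 9.04%. Requiring antibody 2 to cover at least 50% of the polymerase II peak left 2054 members, shares of 4.80% and 2.25%, 68.7% of members found again against input and 48.9% of midpoints central. With antibody 2 peaks of 200 bp or wider these values were 1389 members, 3.24% and 1.37%, 66.6% and 57.0%. Both settings lower the count by construction and were applied to the input lists too, a stricter criterion for being found again. By the main criterion 73.4% of those 1389 kept their class. Without antibody 1 within 1000 bp, the share in place was 17.4%, and 65.3% of members were found again when the same distance was required in the input lists. Moves of 10 kb and 100 kb gave 10.9% and 9.68%, and antibody 2 peaks that touch no antibody 1 peak gave 9.65% after the move. The cause of these differences was not tested. Leaving out the width limit, chromosome 18 or the blocks kept the 5 values within their limits; the last 2 settings, and that on antibody 2 peaks touching antibody 1, were chosen after seeing the data. No paired analysis was possible because each antibody has 1 library. Without read depth or scores, how many 123 bp antibody 2 peaks rest on few reads is unknown.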

Other observations

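Members were thinly spread, with a few dense stretches. Of 2140 bins of 1 Mb with a polymerase II peak, 1547 held a member, with a median of 3 members. The bin with the most was on chromosome 19 from 1000001 to 2000000, with 55 members among 238 polymerase II peaks without antibody 1 (23.1%) and 423 antibody 2 peaks. On chromosome 16 from 89000001 to 90000000 there were 52 members among 307 such peaks (16.9%), and on chromosome 17 from 79000001 to 80000000 there were 42 among 184 (22.8%). The next were chromosome 19 from 50000001 to 51000000, with 40 members among 160, and chromosome 11 from 121000001 to 122000000, with 36 among 220 (16.4%). The share of members in these 5 bins thus lay on both sides of the 18.4% of the whole list.

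The single runs of polymerase II peaks with the most members held 9 each. One lay at chr16:87856743-87890161 and joined 36 polymerase II peaks, 9 of them members and 2 with antibody 1. It contained the member with 4 antibody 2 peaks on that chromosome. The other, at chr17:80048892-80067199, joined 21 polymerase II peaks, with 9 members and 1 peak with antibody 1. A run at chr20:3904996-3916815 joined 16 polymerase II peaks, of which 8 were members and 0 had antibody 1.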
